A study of Homo sapiens with 4 samples.

Results

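J2 enrichment in DMSO-treated NCI-H1944 cells is the ratio of the J2 library to the Input library of the same cells, which uses 2 of the 4 libraries of the series. J2 is a monoclonal antibody that binds double-stranded RNA (dsRNA) by its shape, and NCI-H1944 is a human lung adenocarcinoma cell line, here of WT genotype. The control cells were given DMSO, the drug's solvent, for 48 h, then kept for 24 h after the washout. Of their lysate 10% was taken as Input, meaning total RNA, and the remainder was precipitated with J2. The other 2 libraries come from cells given 100 nM of the MPS1 inhibitor BAY-1217389 (MPS1i) on the same schedule, and their J2 and Input ratio is set beside that of the DMSO cells. The DMSO and the MPS1i ratio share their region tables but no library.

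Both tables count reads in stranded genomic regions, and the members are all regions outside the mitochondrial chromosome (chrM): 3814142 in the J2 table and 2310960 in the Input table. The regions of the tables differ, so reads were summed per gene name, annotation class and repeat. Single regions were compared only for the 159761 pairs that overlap on the same strand by at least 90% of both lengths. There is 1 library a side, so no value has a replicate check, no test was possible, and every ratio compares libraries. Values are log2 ratios of J2 over Input CPM, reads outside chrM scaled to a common total per library, and intervals are exact 95% counting intervals (Clopper-Pearson), which cover counting error only. An item with at least 50 reads over both libraries is called measured. It is called higher or lower at a ratio of 2-fold or more with an interval excluding 1.

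Long dsRNA forms where an RNA folds back on itself or pairs with an RNA of the opposite strand. In human cells the main folded source is a pair of Alu elements in opposite orientation within one transcript. Alu elements are short retrotransposons that fill many introns and 3′ UTRs. The editing enzyme ADAR acts on such pairs, and the sensors MDA5 and PKR respond to long dsRNA that escapes it. Short hairpins of transfer RNA or small structured RNA are generally too short or too interrupted for firm J2 binding.

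The J2 library held 9733782 reads outside chrM and the Input library 4829313. ChrM took 24.3% of all Input reads and 0.608% of all J2 reads. The J2 regions covered 1155 Mb (both strands) and the Input regions 906 Mb, so a sum also moves with how much was called as a region. The 100 most-read regions held 7.36% of the J2 reads and 9.53% of the Input reads. A count of 0 allows up to 0.308 CPM in J2 and 0.621 CPM in Input (3 reads). Of the 12 lung epithelium markers 7 were measured, with keratin 8 (KRT8) at 759 CPM in Input. Of 8 fibroblast markers only the protease FAP was measured, at 7.45 CPM in Input, and of 8 leukocyte markers only CD14 and ITGAM were, at 4.56 and 5.38 CPM.

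The regions leave out nearly all exonic sequence, and many of the most-read ones end on the single base where an exon begins. In the table of J2 5981 regions share exactly 1 base with a GENCODE 29 exon of their strand, 0.157% of the regions and 10.8% of the reads, at a mean of 175 reads. In that of Input 4056 such regions held 12.2% of the reads at a mean of 145. Regions free of exon bases on their strand had a mean of 2.25 reads in J2 and 1.82 in Input. A further 10.7% of J2 reads and 14.6% of Input reads lay in regions over an exon of the opposite strand. Whether the reads of such regions come from the neighbouring exon was not tested. Many results are therefore also given without regions that share a base with an exon on either strand or overlap such a region of the other table on their strand, called exon-free below (chosen after seeing the data).

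The exon bases shared at the most enriched matched regions show how fine this edge is, and are printed for that reason. Each line gives 30 coding bases of the exon, 5′ to 3′ on the transcribed strand from the reference transcripts (GRCh38), with the shared base in capitals. In all 5 the J2 region includes that base and the matched Input region does not.
AGGF1 exon start, chr5:77061703-77061802, plus strand: Tgaaattactgatagcaacaaaggtcggaa
TOMM70 exon start, chr3:100368044-100368166, minus strand: Tttacttcaacttcagtggaagcaagatct
TOMM70 exon start, chr3:100369038-100369135, minus strand: Gcattaacagatcaacaacagtttggtaaa
CPS1 exon end, chr2:210650363-210650438, plus strand: ttcctagaagaggcgactagagtttctcaG
XPOT exon end, chr12:64425815-64425909, plus strand: cctgttttctagatttgtcaaatctctcaA

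These 5 pairs lead the matched regions. In AGGF1, an angiogenic factor gene, the intronic region at chr5:77061231-77061703 held 11615 J2 reads and 33 Input reads, a log2 ratio of 7.43 (interval 6.96 to 7.99). The gene name in the tables there is SNORA47, a small nucleolar RNA. In TOMM70, a receptor of the mitochondrial import machinery, the region at chr3:100368166-100368304 held 1146 and 1 reads (interval 6.67 to 14.46), and the one at chr3:100369135-100369497 held 369 and 0. Those of CPS1, the first enzyme of the urea cycle, and XPOT, the tRNA export receptor, held 976 and 1 reads (interval 6.44 to 14.22) and 973 and 2 reads (interval 6.06 to 10.96). All 5 were also higher in the MPS1i libraries, where the AGGF1 region held 10873 and 9 reads. Because the edge lies on different sides of the exon base in the tables, these ratios do not compare the same ground.

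The lowest matched regions include the opposite strand of small structured RNAs, whose own exons are not in the tables. The sequences of RN7SK and of RPPH1, another such RNA, are shown to say which RNAs these are and how they fold; the RNAs themselves were not measured here. The RNA is given 5′ to 3′ with T for U, from the reference transcripts, and capitals mark the arms of the longest uninterrupted helix in the fold of the printed bases by RNAfold.
RN7SK, chr6:52995621-52995948, plus strand, first 300 of 328 bases: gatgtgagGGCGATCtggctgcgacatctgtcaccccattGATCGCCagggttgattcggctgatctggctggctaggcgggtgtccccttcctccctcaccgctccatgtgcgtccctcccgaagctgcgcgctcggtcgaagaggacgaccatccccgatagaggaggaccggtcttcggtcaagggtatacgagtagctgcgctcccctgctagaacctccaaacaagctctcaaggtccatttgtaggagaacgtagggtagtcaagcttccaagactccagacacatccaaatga
RPPH1, chr14:20343075-20343407, minus strand, first 300 of 333 bases: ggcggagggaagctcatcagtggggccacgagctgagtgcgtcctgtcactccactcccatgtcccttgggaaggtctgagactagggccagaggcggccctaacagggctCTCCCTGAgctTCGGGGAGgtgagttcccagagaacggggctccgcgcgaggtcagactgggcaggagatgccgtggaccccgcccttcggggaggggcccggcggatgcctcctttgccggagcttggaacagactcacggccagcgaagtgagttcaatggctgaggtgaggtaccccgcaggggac

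The longest helix was 7 bp in RN7SK and 8 bp in RPPH1, although 59.3% and 66.7% of the printed bases were paired. RN7SK is the RNA that holds the elongation factor P-TEFb inactive, RN7SL1 the RNA of the signal recognition particle, and RPPH1 the RNA of ribonuclease P. On the strand opposite RN7SK the matched region at chr6:52995621-52995936 held 34 J2 and 7910 Input reads (log2 ratio -8.85, interval -9.40 to -8.39). Opposite RN7SL1 it held 12 and 1425 reads, and opposite RN7SL3, another copy of that RNA, 23 and 3722. In the MPS1i libraries the region opposite RN7SK held 36 and 1670 reads. The counts lie on the strand opposite to the RNA, and whether they are antisense RNA or reads of the RNA given to the other strand was not tested.

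By annotation class, the share of J2 reads shifted mildly from gene starts toward intergenic sequence, and by share no class reached 2-fold. Intergenic regions took 24.8% of J2 reads and 19.3% of Input reads (0.36), over 243 and 134 Mb covered. Regions at transcription termination sites (TTS) took 4.82% and 3.83% (0.33). Introns, the bulk of both libraries, took 65.7% and 70.2% (-0.10). Lower were promoter regions at -0.85, 5′ UTRs at -0.71 and exons at -0.96, each covering slightly more sequence in J2 than in Input. The J2 regions cover more sequence in every class, and per kb covered all 8 classes were below 0. Intergenic regions were then at -0.49, introns at -0.34, 3′ UTRs at -0.32 and TTS at -0.06. Promoters (-1.02), 5′ UTRs (-1.06) and exons (-1.06) were lowest, which is to be read against the negative values of the other classes. The 3′ UTR class, where many inverted Alu pairs lie, took 1.45% of J2 reads and 1.66% of Input reads (-0.20, interval -0.21 to -0.19), and noncoding transcripts were at 0.04. Exon-free, the exon class turned from -0.96 to 0.59, while promoters stayed at -0.77 and 5′ UTRs at -0.91. The MPS1i pair had the same sign in 7 of the 8 classes and the opposite one for 3′ UTRs (0.08).

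**Figure D1:**
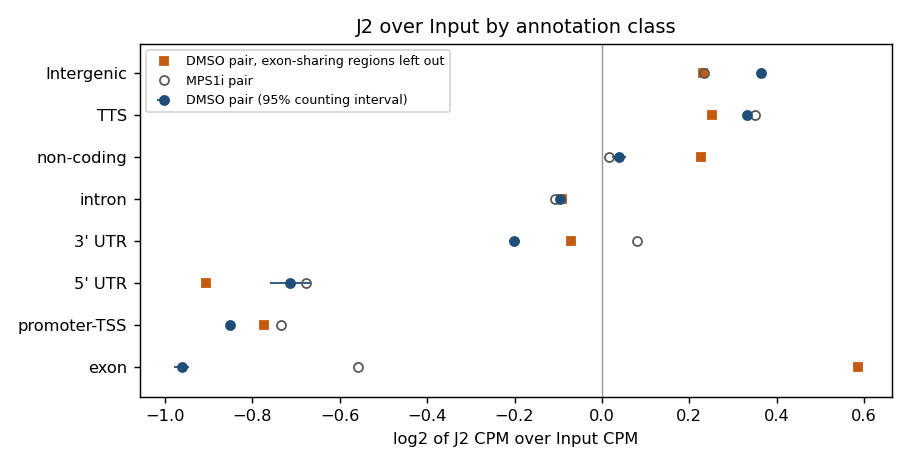
Log2 ratio of J2 over Input CPM (x axis) for the 8 annotation classes (y axis). Filled circles are the DMSO pair with its 95% counting interval, squares the DMSO pair without exon-sharing regions and open circles the MPS1i pair. Intergenic and TTS regions lie above 0 and promoters and 5′ UTRs below 0 in all 3, while the exon class changes side.

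Reads on the strand of a gene took nearly the same share of both libraries, 72.6% of J2 and 71.0% of Input (0.03). The strand opposite to a gene was lower in J2, at 9.97% against 14.1% (-0.50), but exon-free it was at 0.07. Reads outside genes were at 0.23 and exon-free at 0.10. By length, regions over 1000 and up to 5000 bp were higher at 0.89 and those over 300 and up to 1000 bp at 0.34. Regions over 100 and up to 300 bp were lower at -0.55 and those over 5000 bp at -0.51. The J2 library held more reads outside chrM than the Input library (9733782 against 4829313). Not scaled for this, regions over 1000 and up to 5000 bp held 48.0 reads per kb in J2 and 18.1 in Input. In the MPS1i pair that length class was at 0.87, so the larger J2 share in mid-length regions was seen in both pairs.

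Repeats on the strand of a region were then summed by family, using regions whose repeats all belong to 1 family. Alu was the largest family and was moderately higher in J2, with 987970 reads against 367559 (10.1% and 7.61%, log2 ratio 0.42, interval 0.41 to 0.42). Its covered length was also larger, 40.5 Mb against 21.4 Mb, so that per kb covered the ratio was -0.50. Regions without a repeat were at -0.89 on that measure. Exon-free the Alu ratio was 0.57, and with at most 1 read taken per region 0.40. Regions without a repeat were at -0.23 and held 47.0% of J2 and 55.1% of Input reads. Regions with repeats of more than 1 family were at 0.39, and 1.07 exon-free.

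Other retroelement families moved less. L1, the family of long autonomous retrotransposons, was at 0.11 and exon-free at -0.01. Its youngest human subfamily L1HS was at -0.19, with 3207 and 1820 reads, and the young L1PA2 at -0.63. MIR, an old family of short retrotransposons, was at -0.09, L2 at 0.20 and the retroviral MaLR family at 0.31. SVA, the youngest composite retrotransposon, was at -0.32. ERV1 was at -0.72, but at -0.34 without the 100 most-read regions, -0.14 over every region holding a copy and -0.014 with at most 1 read per region. It was further from 0 exon-free (-0.87), in matched regions alone (-1.11), per kb covered (-1.46) and in the MPS1i pair (-0.88). HERVH, a retrovirus of this family, and its promoter LTR7 together held 21386 J2 and 36268 Input reads (-1.77). It was at -1.43 without the most-read region of each table and at -0.84 without the 100 most-read regions, which ends the call. Exon-free the same group was at -2.00, and in the MPS1i pair at -2.15.

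Of the repeat families with at least 1000 counts, 3 of 39 reached the 2-fold call. The family labelled Satellite, tandem repeats of heterochromatin, was higher at 1.12 (interval 0.98 to 1.26), with 2385 and 545 reads. When every region holding a copy was counted it was at -0.07. The separate family of centromeric satellites held 2205 and 717 reads, and at 0.61 it was not called. The centromeric alpha satellite ALR/Alpha had 1629 J2 and 324 Input reads (1.32, interval 1.15 to 1.495) and was at 0.98 in the MPS1i pair. In matched regions alone it was at -0.77, but the interval of -2.67 to 1.13 is too wide to give a side. Transfer RNA copies were lower at -3.54 (interval -3.70 to -3.38), with 377 and 2176 reads, at -3.69 exon-free and at -3.54 in the MPS1i pair. Over every region holding a copy tRNA was at -0.61, and with at most 1 read per region at -1.82. The DNA transposon family hAT-Ac was lower at -2.93, but 1 region carried this, since the value was -0.39 without the most-read regions.

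**Figure D2:**
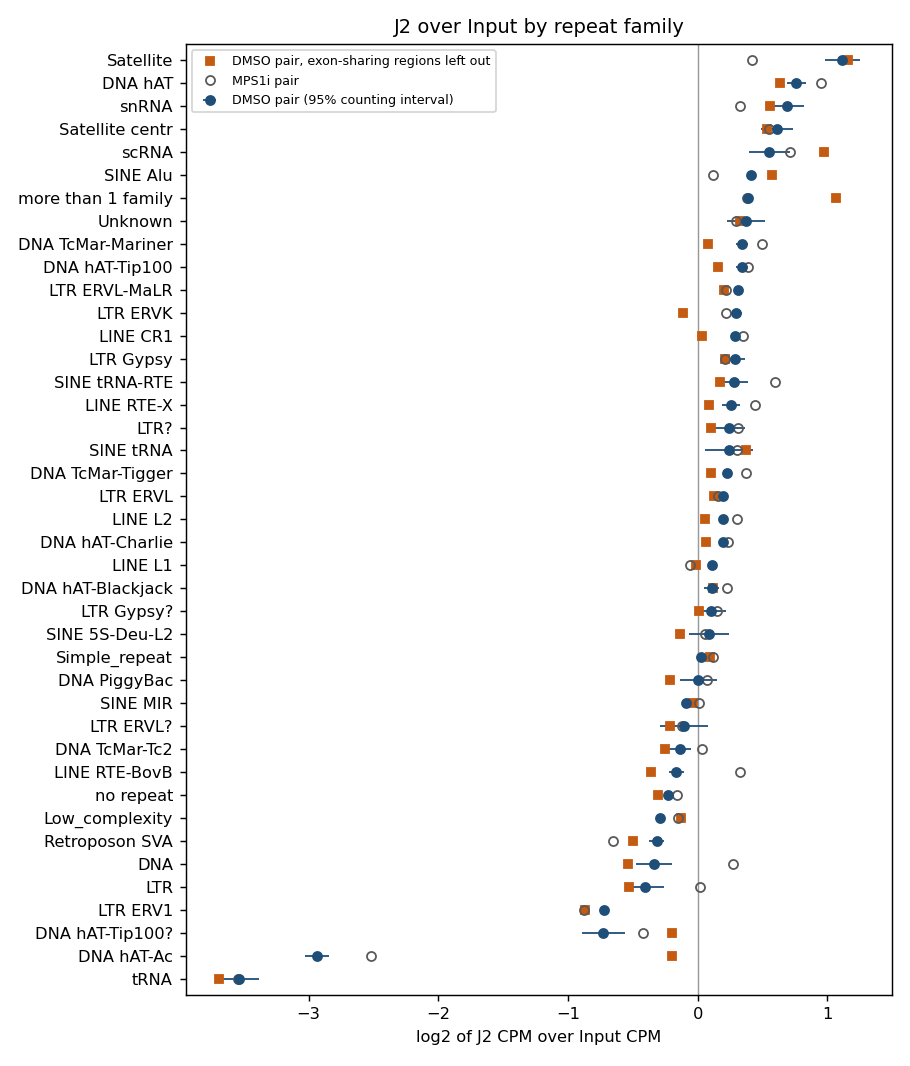
Log2 ratio of J2 over Input CPM (x axis) for repeat families with at least 1000 counts, regions with no repeat and regions with more than 1 family (y axis). Filled circles are the DMSO pair with its 95% counting interval, squares the DMSO pair without exon-sharing regions and open circles the MPS1i pair. Alu lies above 0 in all 3, tRNA lies near -3.5, and hAT-Ac moves from -2.93 to -0.19 without exon-sharing regions.

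At the level of subfamilies, 1370 were measured, with 186 higher (13.6%) and 151 lower (11%), and a median of 0.10. Of 49 measured Alu subfamilies 6 were higher and 4 lower, and their median was 0.49. By age, the old AluJ group was at 0.62, the middle AluS group at 0.39 and the young AluY group at 0.63, so age did not order the ratios. Most of the well-read ones lay close together. AluJb was at 0.68 with 97807 and 30221 reads, AluSx at 0.77, AluY itself at 0.75 and AluSq2 at 0.92. Exceptions were made by single regions: AluSc was at -1.60, but 0.35 without its most-read region, an Input region near EID3 of 17910 reads. Likewise FLAM_A, a free left Alu monomer, was at -2.60 with an Input region of 27896 reads in SET, and 0.42 without it.

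The 10 leading higher subfamilies besides simple repeats included retroviral sequences, old DNA transposons and young Alus, most with few reads in Input. HERVK14-int, the body of an endogenous retrovirus, was the most abundant, at 5219 and 311 reads (3.06, interval 2.89 to 3.23), and 2.71 without its most-read regions. LTR16B was at 3.49 with 666 and 29 reads, of which 568 J2 reads lay in 1 region. LTR53 (713 and 84 reads), LTR31 (271 and 24), MER47B (904 and 140) and MamTip1 (616 and 96) followed between 1.66 and 2.46. Without the most-read regions LTR31, with 241 J2 reads in 1 region, was at -0.03 and MER47B at 0.53. Counted over every region holding a copy, only HERVK14-int of the 10 stayed called higher. The satellite SATR2 was at 1.97, and the rare young Alus AluYa8 and AluYg6 were at 3.52 and 1.70. AluYa8 held 150 and 6 reads, and counted over every region holding a copy was at -0.55. The tRNA copies of tRNA-Ser-TCY were at 3.47, with 120 of 122 J2 reads in 1 region.

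Of the 10 leading lower subfamilies 8 were transfer RNAs, the short cloverleaf adaptors of translation. Of 14 measured tRNA subfamilies 12 were lower and 1 was higher, and the median was -4.30. The selenocysteine tRNA copy tRNA-SeC(e)-TGA held 5 J2 and 223 Input reads (-6.36, interval -8.13 to -5.25), all of the latter in 1 region. Lysine tRNA-Lys-AAG held 13 and 248 reads, tRNA-Lys-AAA 26 and 271, and tRNA-Gly-GGA 22 and 209. Initiator methionine tRNA-Met-i held 3 and 68 (interval -7.83 to -3.91), and tRNA-Leu-TTA 3 and 71 (interval -7.89 to -3.97). For tRNA-Ala-GCY the reads were 4 and 89 and for tRNA-Ile-ATT 1 and 92 (interval -12.85 to -5.02). Counted over every region holding a copy, tRNA-Leu-TTA was at 2.62 and tRNA-Met-i at 0.21, so for these the side depends on which regions are summed. The other two lower ones were L1M2a1, at 8 and 214 reads, exon-free 8 and 10 and over every region holding a copy at 3.41, and LTR10F, at 87 and 506 reads and -0.17 without its most-read regions.

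The arrangement of Alu copies was examined next, because copies in opposite orientation within the same RNA can fold into dsRNA. The distance used is to a region of the other strand, so it does not show that both copies lie in the same RNA. Alu regions of at most 600 bp were sorted by the distance from their centre to the nearest such region on the opposite strand, in either table. Those within 500 bp held 45072 J2 and 11430 Input reads, a log2 ratio of 0.97 (interval 0.94 to 1.00). At 500 to 1000 bp the ratio was 0.42, at 1000 to 2000 bp -0.44, and then 0.20, 0.31 and -0.06 out to over 20000 bp. The dip at 1000 to 2000 bp held 34217 Input reads, of which 16715 were left without the 100 most-read regions. The ratio there was then 0.31. Over 20000 bp it likewise moved, from -0.06 to 0.31. Exon-free, the 6 distances gave 0.85, 0.44, 0.24, 0.09, 0.13 and 0.15. The nearest opposite Alus thus had the highest ratio both ways. A neighbour can be a region of the J2 table alone, so the sorting is not independent of what J2 recovered.

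The same sorting by the nearest Alu region on the same strand gave its highest ratio at 500 to 1000 bp and not within 500 bp. Within 500 bp the ratio was 0.02, then 0.63, 0.56, 0.37, 0.14 and 0.28. Without the 100 most-read regions these were 0.29, 0.59, 0.53, 0.33, 0.10 and 0.25. Exon-free these were 0.15, 0.56, 0.39, 0.29, 0.13 and 0.05. Outside genes the Alu regions within 500 bp of an opposite copy were at 0.74, and on the strand of a gene at 1.08. In the MPS1i pair they were at 0.82 over all regions and 0.72 exon-free, against 0.15 and 0.22 at 500 to 1000 bp. An Alu copy inside a longer region or with no region of its own is not seen by this distance.

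**Figure D3:**
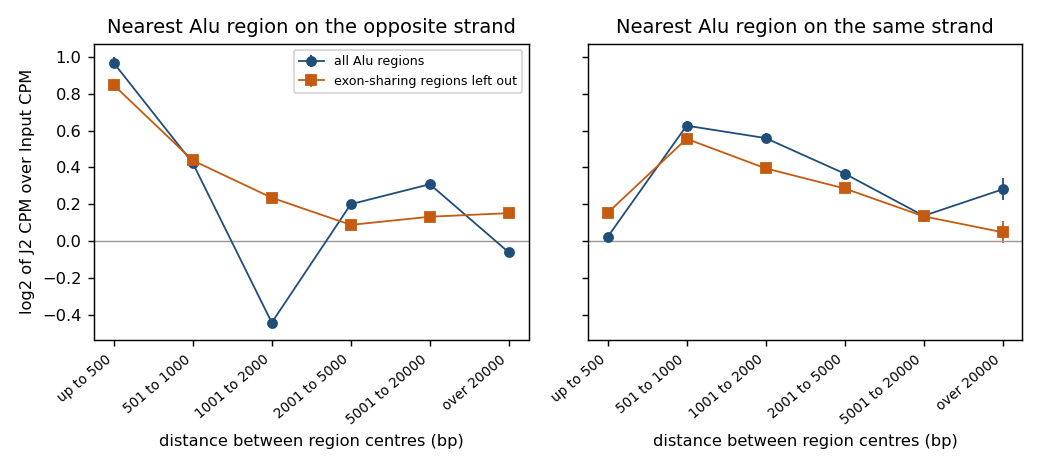
Log2 ratio of J2 over Input CPM (y axis) for Alu regions of at most 600 bp, by distance in bp to the nearest Alu region on the opposite strand (left) or on the same strand (right). Circles are all Alu regions and squares those left without exon-sharing regions, with 95% counting intervals. On the left the ratio is highest up to 500 bp, at 0.97 and 0.85, and on the right it is highest at 500 to 1000 bp.

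Of the matched pairs 8166 were measured, with 19.3% of J2 and 22.9% of Input reads lying in all matched pairs. Higher were 1116 (13.7%) and lower 2011 (24.6%), and the median was -0.15. The exon edge moved with these calls. Of the pairs in which the J2 region alone holds an exon base of its strand, 104 were higher (34.6%) and 24 lower (7.97%). Of 185 pairs in which the Input region alone does, 4.86% were higher and 61.1% lower. With no exon base of its strand in either of them, 13.1% were higher and 24.2% lower, near the shares over all pairs.

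Features that the matching did not use were then described for the 4028 measured pairs free of exon bases on both strands, of which 738 were higher and 556 lower. Pairs with an Alu named on their strand were more often higher, 29.1% of 632, and less often lower, 7.12%, with a median of 0.47. Those with another repeat were higher in 16.0% of 1433 and those with none in 16.6% of 1963. Over all measured pairs, exon-sharing ones included, the order was the reverse, with 11.8% of 3384 Alu pairs higher and 30.7% lower. Over all measured pairs, those over 5000 bp were lower in 37.8% of 2662 and those on the strand opposite to a gene in 37.9% of 3118. Of these, 8 and 195 were free of exon bases. The Alu direction among matched pairs thus turns with the exon-sharing regions.

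Among exon-free pairs, an Alu region on the opposite strand nearby went with a higher J2 ratio whatever the pair itself contained. Exon-free pairs within 500 bp of one had 33.1% of 356 higher and 3.65% lower (median 0.55). Beyond 2000 bp the shares were 15.2% and 16.2% of 2999 (median 0.0029). Where the pair itself names an Alu, 46.9% of 49 were higher within 500 bp, 37.8% of 143 at 500 to 2000 bp and 24.3% of 440 beyond. Where it names no repeat, 31.0% of 197 were higher within 500 bp and 13.9% of 1473 beyond 2000 bp. Pairs with reads on the opposite strand over the pair itself were higher in 18.1% and lower in 14.96% of 3022 (median 0.11). Those without were higher in 19.0% and lower in 10.3% of 1006 (median 0.22). Over all measured pairs, exon-sharing ones included, an opposite-strand Alu region within 500 bp went with 19.4% of 1027 higher and 23.8% lower (median 0.03). With none within 2000 bp, 12.3% of 5362 were higher and 25.0% lower (median -0.20).

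**Figure D4:**
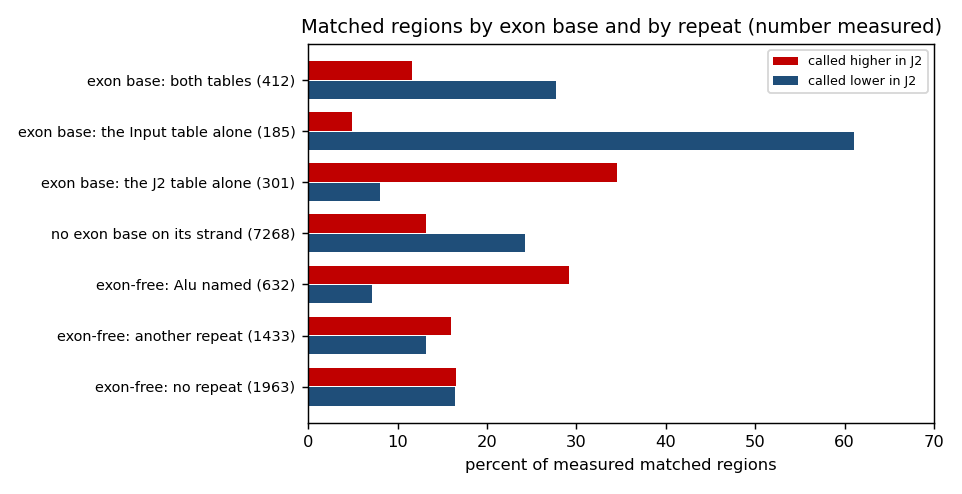
Percent of measured matched regions called higher (red) or lower (blue) in J2, with the number measured in brackets. The upper 4 classes say which table's region holds an exon base of its strand, and the lower 3, free of exon bases on both strands, say which repeat is named. Pairs with an exon base in the Input table alone were lower in 61.1%, and exon-free Alu pairs were higher in 29.1%.

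Of the 12 leading matched regions with no exon base 6 were intronic. The most enriched, at chr5:139326051-139326162, held 259 and 3 reads (5.20, interval 3.86 to 7.71). It carries the gene name PAIP2 but is annotated as intron 13 of 14 of transcript NM_018834. The name therefore need not be that of the gene it lies in. A region of the phosphatase gene PPP1CC held 492 and 12 reads at chr12:110724414-110724659 and 423 and 0 in the MPS1i pair. A region of TOMM20, another mitochondrial import receptor, held 82 and 0 reads, and one of the microtubule gene CKAP5 held 121 and 3 (interval 2.74 to 6.62). None of these 4 names a repeat. Lower ones were in CYP24A1, the vitamin D hydroxylase, with 20 and 279 reads, in SNX5 at 1 and 93 (interval -12.87 to -5.04), and at the pseudogene ANXA2P2 at 20 and 662, whose reads may be shared with ANXA2. The 6 higher and 6 lower regions of this kind were listed after their values were seen.

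The leading matched regions in another 3 genes also touch an exon base. TSC22D1, a leucine zipper regulator, had 2753 and 18 reads at chr13:44434883-44434984, with 1 exon base in both tables. AKR1C1, an NRF2-driven ketosteroid reductase, had 12 and 7024 at chr10:4963532-4963789, with 1 exon base in J2 and 2 in Input. The phosphatase PTP4A1 had 39 and 4298 at chr6:63579341-63580033 (-7.78, interval -8.29 to -7.34), where only the Input region holds the exon base. In the MPS1i pair all 3 kept their side, with 2907 and 76 reads in TSC22D1, 20 and 7216 in AKR1C1 and 45 and 4248 in PTP4A1.

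Summed per gene name, 16624 genes were measured, of which 1232 were higher in J2 (7.41%) and 2861 lower (17.2%), and the median was -0.10. Lower genes outnumbered higher ones. A gene name sums regions of both strands, so its reads need not be RNA of that gene. The median moved to 0.29 when chrM stayed in the scaling and to 0.10 with TMM factors, and it was -0.14 exon-free. Of the calls, 728 higher and 1765 lower ones were also made exon-free. The MPS1i pair, measured over other libraries, correlated with the DMSO pair at Pearson r 0.80 across 15738 genes, which share their regions and are not independent. Of 1137 genes higher in DMSO and measured in both, 631 were higher and 2 lower in MPS1i, and of 2601 lower ones 1421 were lower and 18 higher.

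The largest ratios per gene name came from names that differ between the tables. Of the 12 leading higher names 7 were no longer 2-fold higher when the other table's reads on the same ground were joined, and of the 12 lower names 5 were no longer 2-fold lower. BAGE3 held 4586 J2 and 0 Input reads, but BAGE2, its near-identical copy, held 0 and 1612, and on the same ground the ratio was 0.51. The microRNA copies MIR3648-2 and MIR3648-1, CA5BP1-CA5B and CA5BP1, and ZNF664 and ZNF664-RFLNA were paired in the same way. The ribosomal 5.8S copies turned: RNA5-8SN2 held 1469 and 0 reads and RNA5-8SN5 0 and 2289, and on the same ground the ratio was -1.65, called lower. The ground of FECH was unnamed in the Input table, and PRR20E was paired with PRR20A. These names are of multicopy or overlapping genes, and their sums do not compare the same ground. Only 1.24% of J2 regions that overlap an Input region carried another name, with 1.06% of J2 reads.

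A difference on the same ground was left for 5 of the higher names. BMS1P18 with BMS1P17, pseudogenes of a ribosome factor, was at 2.50 when joined but 0.85 with the names of the Input table carried over, and SNORD109B with SNORD109A, small nucleolar RNA copies, at 3.35. YDJC was at 1.24 and PHOSPHO2 at 1.06. ARCN1, a coat protein of Golgi vesicles, kept its name and held 6921 and 49 reads (6.12, interval 5.73 to 6.57). Of its J2 reads 6657 lay in 1 region at chr11:118584644-118584798 that shares an exon base, and exon-free it was at 1.25. Without that edge ARCN1 lay near the 2-fold limit.

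With the names of the Input table carried over to J2 (chosen after seeing the data), 1171 of 16602 genes were higher (7.05%) and 2834 lower (17.1%), and 1145 and 2785 calls were shared with the first naming. Leading higher were then, besides ARCN1, the histone chaperone gene ANP32E (4127 and 42 reads), the DNA polymerase subunit POLE3 (20051 and 528), the polarity gene LIN7C (4794 and 116) and the ubiquitin ligase CUL4B (2695 and 80). Their reads lay in a few regions at exon edges. In POLE3 19715 of the J2 reads were in chr9:113408983-113409204, whose Input counterpart starts 1 base later, and in ANP32E 4009 were in a region of 3 bases. Exon-free, POLE3 was at -1.59, ANP32E at -0.13, LIN7C at 0.57 and CUL4B at -0.68. CENPS (0.94) and NMNAT1 (1.49) stayed above 0.

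Leading lower were protein-coding genes, small nucleolar RNAs and the structured RNAs described below. SNORD24, a small nucleolar RNA in an intron of the ribosomal protein gene RPL7A, held 0 J2 and 933 Input reads, at least 627-fold lower against the floor of 3 reads, but exon-free it held 0 and 6 and was not measured. RPS14, a protein of the small ribosomal subunit, held 8 and 2417 reads (-9.16) and exon-free 5 and 38 (-3.95). TMSB10, which sequesters actin monomers, held 102 and 7994 reads (-7.30) but 48 and 16 exon-free (0.41). SNORA15, in an intron of the chaperonin gene CCT6A, held 8 and 1541 and exon-free 6 and 13, and SNORD10 held 0 and 222, at least 149-fold lower, but was at -3.51 with names carried over. ATP5MF-PTCD1, a readthrough name, held 0 and 916 reads and was at -4.69 when joined with ATP5MF.

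To find genes whose ratio hangs less on an edge, a name or 1 region, calls were required in 3 further settings (chosen after seeing the data). These were exon-free, names carried over, and the most-read region of each table left out. That region need not be the same in both tables. Higher in all were 486 of 1232 genes and lower in all 1381 of 2861. Also called in the MPS1i pair were 217 and 583, and also with same-strand GENCODE genes 74 and 266. The genes named from these were chosen after their values were seen. GCLC, the catalytic subunit of the rate-limiting enzyme of glutathione synthesis, had the most J2 reads of those named. It held 97795 J2 reads (10047 CPM) and 10228 Input reads (2118 CPM), a log2 ratio of 2.25 (interval 2.22 to 2.28). It was at 2.12 exon-free, 1.497 without its most-read regions, 1.44 by GENCODE strand and 2.56 in the MPS1i pair. Its most-read J2 region, chr6:53556980-53561017 on the minus strand with 62041 reads, names an LTR8 and an AluSg copy and is intergenic by HOMER, but lies within the GENCODE gene at chr6:53497341-53616970. In Input the most-read region was another, chr6:53554783-53556914 with 3945 reads. The J2 region on that ground, chr6:53554778-53556971 with 21797 reads, was left in. The value of 1.497 therefore does not compare the same ground.

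Among other higher genes of this kind, TIMM29, a subunit of the mitochondrial inner membrane translocase, held 397 and 44 reads (2.15), and 173 of its J2 reads lay at its TTS in a region at chr19:10930496-10931352 that names 5 Alu copies. ZNF582, a KRAB zinc finger gene, held 216 and 18 reads (2.54), and 108 and 18 by GENCODE strand (1.54). Its most-read J2 region, with 89 reads, names an AluJr but lies on the strand opposite to the gene. GJC1, the connexin 45 gene, held 160 and 26 reads (1.59), and 85 and 15 by GENCODE strand (1.45). Its most-read J2 region, with 22 reads, names an AluJb and lies opposite to its 3′ UTR. The pseudogenes DUXAP9 (6594 and 630 reads, 2.38) and DUXAP8 (2348 and 304, 1.94) were higher on different chromosomes, and as near-identical copies they can share reads. RRP36, a factor of ribosomal RNA processing, held 3304 and 561 reads (1.55) and PCGF6, a Polycomb group protein, 524 and 88 (1.56).

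Among lower genes of this kind, FLNA, which crosslinks actin, held 154 J2 and 1503 Input reads (-4.29), and exon-free it was at -4.20. GAPDH of glycolysis held 542 and 4484 reads (-4.06, exon-free -2.94), and FTL, the ferritin light chain, 299 and 3269 (-4.46, exon-free -3.04). Of the Input reads 2410 for GAPDH and 2800 for FTL lay in 1 region on the opposite strand. By GENCODE strand GAPDH held 13 and 1218 reads (-7.51), FTL 5 and 332 (-6.93) and FLNA 49 and 1073 (-5.45). MYL12B, a myosin light chain, held 139 and 1008 (-3.87), HSPH1, a heat shock chaperone, 149 and 670 (-3.18), and HNRNPL, a splicing regulator, 161 and 1982 (-4.63). S100P, a calcium-binding protein of carcinomas, held 129 and 1263 (-4.30), with -4.85 in the MPS1i pair. None of their ratios turned positive in any of the settings named above.

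Of 18 gene lists, 2 had the highest medians, against -0.10 over all measured genes. Counts of called members in every list stand against 7.41% higher and 17.2% lower over all measured genes. Genes with inverted Alu pairs in their 3′ UTR were at a median of 0.57 over 21 measured members of 22, with 4 higher and 2 lower. METTL7A held 213 J2 and 38 Input reads (1.46, interval 0.97 to 2.01). Its most-read regions lay on the strand opposite to the gene, and by GENCODE strand it held 13 and 2 reads and was not measured. MDM2, the ubiquitin ligase of p53, held 9577 and 1858 (1.35, exon-free 1.79), of which 3701 J2 reads lay in 1 region, and without the most-read regions it was at 0.77. BPNT1, a nucleotide phosphatase, held 84 and 19 (1.10, but 0.69 by GENCODE strand), exon-free 36 and 5, and NICN1 42 and 10 (1.01). PAICS, a purine synthesis enzyme, was lower with 988 and 1856 reads (-1.92), but exon-free it was at 1.21, and APOL1 was lower at -1.52. Exon-free the list's median was 0.36, with 3 higher and 1 lower, and in the MPS1i pair 0.32. By GENCODE strand it was 0.54 over 18 measured members, with 5 higher and 3 lower.

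KRAB zinc finger genes, of which many bind and silence retrotransposons, were at a median of 0.42 over 19 measured of 29, with 5 higher and 1 lower. ZNF83 held 5127 and 1015 reads (1.32, interval 1.23 to 1.42), and 0.66 without its most-read regions, where 2727 of its J2 reads lay. ZNF850 held 421 and 75 (1.47, but 0.23 by GENCODE strand) and ZNF43 92 and 17 (1.39). ZNF257 (133 and 26 reads) and ZNF708 (247 and 60) were at 1.32 and 1.02. ZNF141 was lower with 24 and 58 reads (-2.27), and exon-free it was at -0.54. The exon-free list was at a median of 0.30, with 4 higher and 0 lower. Very long genes, whose reads are nearly all intronic, were at 0.08 with 0 of 24 higher and 1 lower (CTNNA3, -2.36, but -0.19 by GENCODE strand). CNTNAP2, the most-read of them, held 12002 and 5360 reads (0.15).

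**Figure D5:**
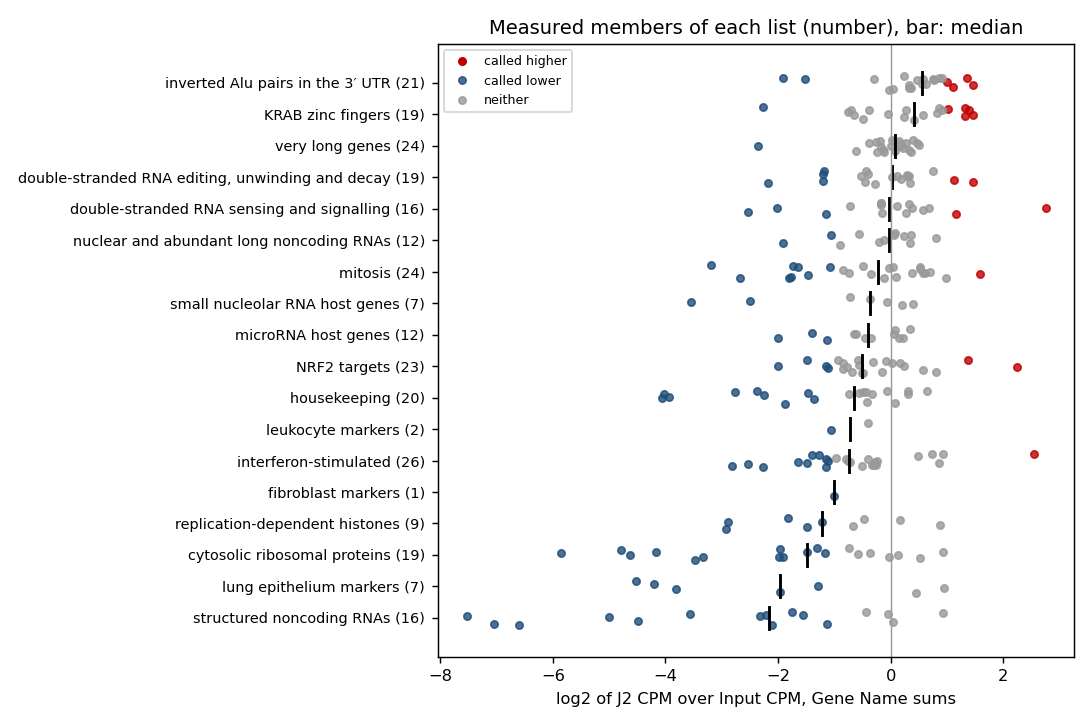
Log2 ratio of J2 over Input CPM of gene name sums (x axis) for the measured members of 18 lists (y axis, number measured in brackets). Each point is 1 gene, red if called higher, blue if called lower and grey otherwise, and the black bar is the list's median. Medians run from 0.57 for genes with inverted Alu pairs in the 3′ UTR to -2.16 for structured noncoding RNAs.

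The genes that sense or process dsRNA were not themselves shifted as a group. Sensing and signalling genes were at a median of -0.02 over 16 measured of 22, with 2 higher and 3 lower. PRKRA, the activator of the kinase PKR, held 3484 and 773 reads (1.16, exon-free 1.06), but 0.43 without its most-read regions, which hold 2235 of the J2 reads, and 0.43 by GENCODE strand. TRIM25, a ubiquitin ligase of the RIG-I pathway, held 3114 and 229 (2.75), but 2970 of the J2 reads were in 1 region, and exon-free it was at -1.52. OAS1, which makes the activator of RNase L, was lower with 44 and 128 (-2.54), as were IRF3 (24 and 49) and OAS2 (63 and 69, exon-free -0.86). Editing, unwinding and decay genes were at 0.02 with 2 higher and 4 lower of 19. Over all measured genes 7.41% were higher and 17.2% lower, so neither list's counts set it apart. PNPT1, the mitochondrial exoribonuclease, held 672 and 152 reads (1.13, exon-free 1.01), but 0.50 without its most-read regions and 0.92 by GENCODE strand, and its partner helicase SUPV3L1 917 and 165 (1.46, exon-free -0.39). SKIV2L (22 and 50 reads), HNRNPM (151 and 172), ILF2 (125 and 142) and DROSHA (1291 and 1447), the nuclease of microRNA hairpins, were lower, and ILF2 was at 0.15 exon-free. ADARB1, the most-read editing gene, was at -0.52.

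Interferon-stimulated genes were lower than most, at a median of -0.74 over 26 measured of 34, with 1 higher and 10 lower. OAS1 was described above, and IFIT2, which binds viral RNA, was lower with 24 and 58 reads (-2.27). SAMD9L was higher with 171 and 14 reads (2.55), of which 156 J2 reads lay in 1 region, and exon-free it was at -0.71. PARP9, the most-read member, was at 0.73 with 3053 and 912 reads. The exon-free median was -0.50. NRF2 target genes were at -0.51 over 23 measured, 2 higher and 4 lower, about the shares over all measured genes (7.41% and 17.2%). GCLC and TRIM16L (2478 and 472 reads, 1.38, exon-free 0.16) were higher. HMOX1 (-2.01, exon-free -0.97), AKR1B10 (-1.49, exon-free -0.92), AKR1C1 (-1.14, exon-free -0.12) and GPX2 (-1.11) were lower, so the list held genes on both sides.

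Genes with abundant, mostly exonic mature RNA lay at the low end. Ribosomal protein genes were at a median of -1.48 over 19 measured of 26, with 0 higher and 12 lower. RPLP0 held 17 and 500 reads (-5.85, exon-free 0 and 4), RPS18 204 and 2797 (-4.79) and RPS6 1730 and 15493 (-4.17). Exon-free RPS6 was at 0.11 and RPS18 at -0.22, and the list's median was -0.71. Housekeeping genes were at -0.65 over 20, with 0 higher and 9 lower, among them GAPDH, ACTB (238 and 1925 reads, -4.02) and TPI1 (96 and 737). PKM, the most-read, was at -1.48 and exon-free at 0.28. Lung epithelium markers were at -1.96 over 7, with 5 lower: KRT8 held 320 and 3666 reads (-4.53, exon-free -0.99), ELF3 75 and 686 and KRT7 17 and 121. FAP (-1.01) and ITGAM (-1.07) of the other cell type lists were lower too, with few reads.

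Structured noncoding RNAs had the lowest median, -2.16 over 16 measured of 26, with 0 higher and 12 lower. RN7SL1 held 15 and 1425 reads (-7.53, exon-free 3 and 0), RN7SK 121 and 7953 (-7.04, exon-free -0.47) and RPPH1 21 and 1041 (-6.61, exon-free 13 and 12), mostly in regions opposite to these RNAs. Exon-free 13 members remained, with 0 higher and 7 lower and a median of -1.14. These names sum what lies around the RNA, since the RNA's own exon is not in the tables. Histone genes, whose mature RNA ends in a stem-loop, were at -1.21 with 0 higher and 5 lower of 9. HIST1H3B held 26 and 99 reads, HIST1H1C 11 and 42 and HIST1H2BC 25 and 44, while HIST1H4H, the most-read, was at -0.47. Histone copies resemble each other and can share reads.

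The remaining lists lay between these ends, and their counts stand against 7.41% higher and 17.2% lower over all measured genes. Nuclear long noncoding RNAs were at -0.03 over 12 measured of 19, with 0 higher and 2 lower. MALAT1 held 36 and 68 reads (-1.92) and NEAT1, the scaffold of paraspeckles, 267 and 276 (-1.06), and CASC19 was at 0.80 with 8518 and 2419. MicroRNA host genes were at -0.41 with 0 higher and 3 lower of 12, namely MIRLET7BHG (141 and 281 reads), MIR29B2CHG (197 and 256) and MIR193BHG (100 and 108, but 0.24 by GENCODE strand). MIR100HG, the most-read, was at 0.15. Host genes of small nucleolar RNAs were at -0.37 with 0 higher and 2 lower of 7, TAF1D (26 and 154) and SNHG6 (50 and 141). Mitosis genes were at -0.23 with 1 higher and 8 lower of 24. NDC80 of the kinetochore held 90 and 412 reads (-3.20), AURKB 60 and 191 and PLK1 125 and 216. ECT2, needed for cytokinesis, was higher with 6561 and 1081 (1.59), but exon-free it was at -0.06.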

How the data were processed

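NCI-H1944 J2 and Input libraries were prepared with the SMARTer Stranded Total RNA kit, per the labels' protocols. The authors deposited 2 tables of read counts per stranded region, unnormalized whole numbers, with HOMER annotation, per the file headers. Trim Galore, Trimmomatic, cutadapt, STAR, featureCounts, HOMER and GRCh38 are named in the submitters' processing notes, without versions or order.

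The members and gene lists were chosen with earlier results of these data known. Reads on chrM were left out and each column was scaled to the remaining sum. Sums used regions naming 1 subfamily or 1 family, or all regions of a gene name or class. Fitted log2 ratios carry a pseudocount of 0.5 reads, intervals are exact, and a count of 0 was set to a floor of 3 counts for bounds. The text names the 12 leading genes, 10 subfamilies and 6 matched regions each way by the bound of the interval, and up to 3 called members of each list each way with the member of most counts. Kept genes, exon-free regions and called members beyond these were named after their values were seen. GENCODE release 29 gave exons, strands and transcripts.

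With 1 library a side the spread between samples is unknown, and no test was made. Python 3.11.15, numpy 2.4.6, pandas 2.3.3, scipy 1.17.1, edgeR 4.0.16 (TMM factors only) in R 4.3.3 and ViennaRNA 2.7.2 were used. The calls were tested on simulated data with planted changes and counting error only. That test does not cover exon edges, differing names or the spread between libraries. Other scalings, minimum counts, overlaps and region choices were tried. Regions of chromosome 8 are not described singly, and some named items and 1 sequence are not reported here.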

Additional observations from a re-analysis of the deposited data

Results flagged for a closer look

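Mitochondrial reads, which no comparison above uses, differed by strand: 8.54% of the chrM reads of the DMSO J2 library lay on the minus strand (5089 reads) and 0.818% of those of the DMSO Input library (12696 reads). In the MPS1i libraries the shares were 7.88% and 0.558%.

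In 4 classes or families the DMSO and the MPS1i pair had opposite signs with both intervals excluding 0, and the difference was not tested. The log2 ratio of 3′ UTR regions was -0.20 in DMSO and 0.081 in MPS1i. For L1 it was 0.11 and -0.058, for RTE-BovB -0.16 and 0.33, and for unclassified DNA transposons -0.34 and 0.27.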

How the results depend on the processing

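Each result was recomputed under other scalings, minimum counts, overlaps and region choices. Leaving out exon-sharing regions, names carried over, every region holding a copy and leaving out the most-read region were chosen after seeing the data. No paired analysis was possible because each group has 1 library. Named genes kept their side and call in 598 of their alternatives, lost the call on the same side in 81 and turned in 40. In 8 the side changed without a call in either setting, and in 5 a call was gained. Causes of the changes below were not tested, except that a stricter minimum or matched regions alone leave fewer items to call and that 1 read per region removes depth. Values are log2 ratios or counts of calls.

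With chrM kept in the scaling, 2849 genes were higher and 1797 lower, 1932 matched regions and 337 subfamilies were higher, and 3′ UTRs were at 0.19, introns at 0.30, regions with no repeat at 0.16 and MIR at 0.31. With TMM factors 1922 genes were higher, and 3′ UTRs were at 0.00055, introns at 0.11 and MIR at 0.11. With upper quartile scaling introns and MIR were at 0.047 and 0.054. Without the 100 most-read regions RN7SK was at 0.44, PKM at 1.18, AKR1B10 at 0.83, noncoding transcripts at -0.28, MIR at 0.031 and Alu monomers at 0.41.

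At a minimum of 20 counts 289 subfamilies were higher and 289 lower, and 4119 matched regions lower. At 200 counts 1225 genes were lower, 85 subfamilies higher and 62 lower, and 447 matched regions higher and 418 lower. At 50% overlap 5873 matched regions were higher and 3949 lower, and at 98% overlap 399 and 1173. In matched regions only, 562 genes were higher and 1333 lower, and 62 subfamilies were higher and 62 lower. There PAICS was at 0.77, TRIM25 at -1.65, SUPV3L1 at -0.43, TRIM16L at -0.88, 3′ UTRs at 0.023, no repeat at 0.0081, simple repeats at -0.40, PiggyBac at -2.30, ALR/Alpha at -0.77 and Alu monomers at 0.25.

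With at most 1 read per region 157 genes were higher and 136 lower, and 2 subfamilies higher and 1 lower. The reversed values were -0.36 for MDM2, 0.15 for PAICS, -0.46 for TRIM25, -0.34 for SUPV3L1, -0.49 for PNPT1, 0.015 for MIRLET7BHG, -0.14 for ZNF83, -0.45 for GCLC, -0.14 for TRIM16L and -0.14 for ECT2. TTS regions were at -0.16, noncoding transcripts at -0.32, hAT-Charlie at -0.032, TcMar-Tigger at -0.032, hAT-Ac at 0.12, HERVK14-int at -0.18, MER47B at -0.13, MamTip1 at -0.11 and Alu monomers at 0.14.

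Without exon-sharing regions TMSB10 was at 0.41, PAICS at 1.21, TRIM25 at -1.52, SUPV3L1 at -0.39, ILF2 at 0.15, RPS6 at 0.11, PKM at 0.28 and ECT2 at -0.063. The exon class was at 0.59, L1 at -0.013 and Alu monomers at 0.30, and 587 matched regions were higher and 657 lower. Without the most-read region PAICS was at 0.32, TRIM25 at -0.74, SUPV3L1 at -0.28, ILF2 at 0.28, PKM at 0.39, AKR1B10 at 0.14, MIR at 0.016 and Alu monomers at 0.39.

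With names carried over CA5BP1-CA5B was at -0.20, BAGE2 at 0.48 and MIR3648-1 at 0.24. By same-strand GENCODE genes 1707 genes were lower, and RNA5-8SN2 was at -1.09, FECH at -0.96, BAGE2 at 0.43, ILF2 at 0.041, MIR193BHG at 0.24 and PKM at 0.48. By HOMER annotation on either strand MIR was at 0.017 and simple repeats at -0.14. Over every region holding a copy 968 subfamilies were lower, and hAT-Charlie was at -0.026, Satellite at -0.072, AluYa8 at -0.55, LTR31 at -0.65, MER47B at -0.064, MamTip1 at -0.93, AluYg6 at -0.41, L1M2a1 at 3.41, tRNA-Leu-TTA at 2.62 and tRNA-Met-i at 0.21.

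Per kb covered, 5′ UTRs were at -1.06, intergenic regions at -0.49, TTS at -0.063, exons at -1.06, noncoding transcripts at -0.14 and promoters at -1.02. All 8 classes were below 0 on this measure, and regions with no repeat were at -0.89, since the J2 regions cover more sequence. Alu was at -0.50, L1 at -0.65, simple repeats at -0.51, L2 at -0.51, MaLR at -0.60, hAT-Charlie at -0.53 and TcMar-Tigger at -0.55. Depth limits the smallest items: a gene with 50 reads has a wide counting interval, and the spread between libraries is unknown.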
